A study of Mus musculus with 6 samples.

Results

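The HOX genes encode homeodomain transcription factors that give cells their position along the body and limb axes. All protein-coding genes of the mouse build GRCm38 whose symbol is Hoxa, Hoxb, Hoxc or Hoxd followed by a number were taken, a choice that used no measured value. This gave 39 of the 49652 genes counted in the series. They lie in 4 clusters, with 11 genes in Hoxa (chromosome 6, 52155590 to 52260880), 10 in Hoxb (chromosome 11, 96194316 to 96368256), 9 in Hoxc (chromosome 15, 102921103 to 103036852) and 9 in Hoxd (chromosome 2, 74668310 to 74765142).

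Within a cluster the genes stand in the order of their numbers, and genes of the same number in different clusters are paralogs that bind similar DNA sites. Low numbers are first used in the hindbrain and neck, and higher numbers further towards the tail. In the limb, numbers 9 to 13 pattern successive segments from the hip to the digits. HOX proteins bind DNA together with the TALE homeodomain cofactors of the PBX, MEIS and PREP families. Adult muscle stem cells, the Pax7-positive cells that regenerate muscle fibres, are known to keep a HOX pattern that reflects the body region they come from.

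The 6 libraries are bulk RNA-seq of muscle stem cells sorted from uninjured hindlimb muscle of mice aged 8 to 10 weeks, selected as positive for a-integrin-7 and VCAM and as lacking CD31, CD45 and Sca1. All mice carried the genotype label OPA1-Pax7-CreERT2. Tamoxifen was given to both groups by gavage for 5 days, and cells were sorted 3 days after that. The 3 WT libraries came from Cre-negative animals and the 3 KO libraries from Cre-positive animals, in which the Pax7 promoter drives the tamoxifen-activated recombinase in muscle stem cells. No Cre-positive group with intact Opa1 is among the samples analysed here, so Cre and loss of Opa1 cannot be told apart. The labels do not say whether a library held 1 animal or a pool, so p-values measure the spread between these libraries.

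The libraries held 41410136 to 56606886 gene counts each. Levels are given as normalised counts per 1000000 reads of a library (CPM), where a level of 1 CPM stood for 41.5 to 56.8 reads. Opa1, the targeted mitochondrial fusion gene, had 68.1, 31.4 and 68.7 CPM (WT) against 17.5, 34.4 and 27.1 CPM (KO). The value of WT replicate 2 fell among those of KO, against its label, so it is referred to as the library labelled WT replicate 2. Opa1 had a log2 fold change of -1.09 (SE 0.37, edgeR's quasi-likelihood test, Benjamini-Hochberg adjusted p = 0.99998), and -1.38 without that library. The exact two-sided permutation test gave p = 0.2, where 3 against 3 cannot go below 0.1. Xist was at 0.0209 CPM in the library labelled WT replicate 2 and at 244 to 508 CPM in the others, and the Y-linked Ddx3y had 0.0353, 226 and 23.3 CPM (WT) against 0.14, 22.9 and 90.1 CPM (KO). WT replicate 3 and KO replicates 2 and 3 thus held both transcripts. WT replicate 1 and KO replicate 1 held almost only Xist, and the library labelled WT replicate 2 almost only Ddx3y. Transcripts of the sex chromosomes varied within each genotype in this way, and the labels give no sex. Whether the libraries with both transcripts held cells of both sexes was not tested. All 10 markers in the muscle stem cell list reached 1 CPM in each of the 6 libraries, with Pax7 at 333 ± 74.4 CPM in WT and 372 ± 70.6 CPM in KO (SD, n = 3 each). Of these 10, 3 log2 fold changes were above 0 and 7 below, with a median of -0.13, and edgeR called 0. Calcr, the calcitonin receptor gene of quiescent muscle stem cells, averaged 284 CPM in WT and 190 CPM in KO, lower in every KO library. Its log2 fold change was -0.58 (SE 0.20, edgeR, unadjusted p of 0.0244). Chrdl2 had -0.99 (SE 0.41, edgeR, unadjusted p of 0.0475) but overlapped, at 295, 136 and 478 CPM (WT) against 144, 178 and 137 CPM (KO). Of all 18832 genes tested, 2.09% had an unadjusted p under 0.05 in edgeR, and in 6.55% the groups did not overlap.

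These hindlimb muscle stem cells expressed Hoxa and Hoxc genes, little of Hoxd and almost nothing of Hoxb. Summed over the clusters per length of exon, numbers 10 and 9 stood highest. Within Hoxa alone, Hoxa7 lay above Hoxa9 on that scale. Of the 39 genes, 14 reached 1 CPM in all 6 libraries. These were 7 of the 9 Hoxc genes (Hoxc4, Hoxc5, Hoxc6, Hoxc8, Hoxc9, Hoxc10 and Hoxc11), 6 of the 11 Hoxa genes (Hoxa3, Hoxa5, Hoxa7, Hoxa9, Hoxa10 and Hoxa11), Hoxd8, and none of the 10 Hoxb genes. Another 5, among them Hoxa2, Hoxa13, Hoxd4 and Hoxd9, reached 1 CPM in some libraries, 16 were counted without reaching it in any, and 4 (Hoxb13, Hoxd11, Hoxd12 and Hoxd13) had 0 counts in every library. In bulk RNA, fewer cells expressing a gene and less RNA per cell cannot be told apart.

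**Figure D1:**
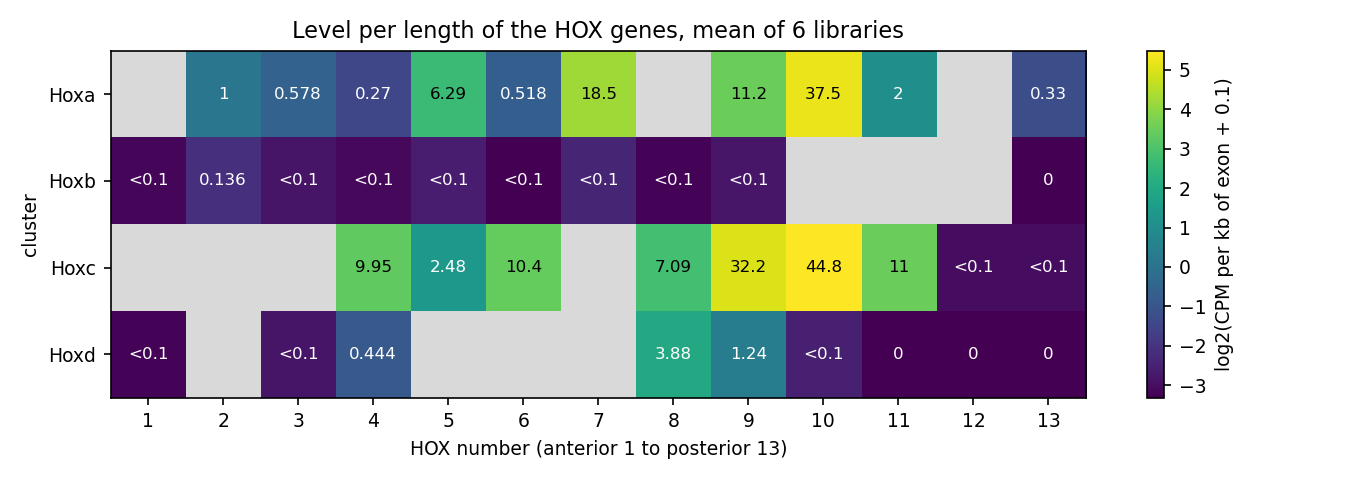
Mean level of HOX genes over 6 libraries, in CPM per kb of exon (printed in each cell, colour on a log2 scale), with clusters in rows and HOX numbers in columns, and grey where no gene is shown. Hoxc10 (44.8), Hoxa10 (37.5) and Hoxc9 (32.2) stand highest, and the Hoxb row lies at or under 0.136 throughout.

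To compare genes with each other, CPM was divided by the length of each gene's annotated exons. On this scale of CPM per kb, Hoxc10 was highest at 44.8 ± 7.18, followed by Hoxa10 at 37.5 ± 5.22 and Hoxc9 at 32.2 ± 4.30 (SD over all 6 libraries, n = 6). These 3 genes made up 56.6 ± 1.5% of the summed level of the 39 HOX genes, from 54.9% to 59.4% in single libraries. Next came Hoxa7 at 18.5 ± 2.22, Hoxa9 at 11.2 ± 1.99, Hoxc11 at 11 ± 2.49, Hoxc6 at 10.4 ± 1.66 and Hoxc4 at 9.95 ± 1.99 CPM per kb. Hoxc8 stood at 7.09 ± 2.00, Hoxa5 at 6.29 ± 1.99, Hoxd8 at 3.88 ± 1.68, Hoxc5 at 2.48 ± 1.11, Hoxa11 at 2.00 ± 0.486 and Hoxa3 at 0.578 ± 0.271 CPM per kb.

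Parts of this order were beyond the spread between libraries and parts were not. Hoxc10 lay above Hoxa10 in 6 of 6 libraries and Hoxa10 above Hoxc9 in 5 of 6, with gaps between means (7.27 and 5.25 CPM per kb) that barely passed the larger SD of each pair (7.18 and 5.22). Hoxc9 was above Hoxa7, and Hoxa7 above Hoxa9, in 6 of 6 libraries. The order of Hoxa7 and Hoxa9 rests on their exon lengths (2876 and 5580 bases). In CPM not divided by length, Hoxa7 averaged 53.1 and Hoxa9 62.5. The gaps between Hoxa9 and Hoxc11, Hoxc11 and Hoxc6, and Hoxc6 and Hoxc4 were smaller than the larger SD of each pair. Hoxc4 lay above Hoxc8 in 6 of 6 libraries, by 2.86 CPM per kb (larger SD 2.00). The gaps between Hoxc8 and Hoxa5, Hoxd8 and Hoxc5, and Hoxc5 and Hoxa11 were within the larger SD as well.

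By number, group 10 carried 40.7% of the summed level per length and group 9 carried 22.1%, and no other group passed 9.2%. Per length, the Hoxc member was the higher paralog in each of groups 9, 10 and 11. In group 10 this rests on the annotated exon lengths (1909 bases for Hoxc10, 3270 for Hoxa10). In CPM not divided by length, Hoxa10 (104 to 153) lay above Hoxc10 (66.4 to 101). Which of the annotated exons these cells use was not tested. Hoxa10 stood at 0.71 to 0.99 times Hoxc10 within a library, Hoxa9 at 0.28 to 0.43 times Hoxc9, and Hoxa11 at 0.14 to 0.26 times Hoxc11. The level fell steeply from group 10 to group 11, with Hoxa10 at 13.77 to 25.49 times Hoxa11 and Hoxc10 at 3.48 to 5.28 times Hoxc11 per length.

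By cluster, Hoxc gave 58.1 ± 1.7% of the summed level per length, Hoxa 38.8 ± 1.2%, Hoxd 2.9 ± 1.0% and Hoxb 0.2 ± 0.1% (SD, n = 6). The Hoxc share in the WT libraries was 58.8%, 60.1% and 55.2%, against 57.1%, 58.8% and 58.8% for KO. For Hoxa the WT libraries had 38.4%, 38.4% and 41.1%, against 38.5%, 38.8% and 37.6% for KO. Both shares overlapped between genotypes, and the 2 clusters kept the same rank in all 6 libraries. The Hoxd share ran from 1.3% in the library labelled WT replicate 2 to 4.2% in KO replicate 1.

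In the Hoxc cluster, Hoxc10, a gene of hindlimb and lumbar identity, had 91.3, 95.3 and 71.2 CPM (WT) against 66.4, 101 and 87.5 CPM (KO). Hoxc9, which marks thoracic identity in the trunk, had 81.0, 77.7 and 70.4 CPM (WT) against 62.9, 86.9 and 91.1 CPM (KO). Hoxc11 had 27.4, 23.6 and 14.3 CPM (WT) against 20.2, 27.3 and 20.2 CPM (KO). The KO libraries reached below and above all WT libraries for Hoxc10 and Hoxc9 and lay inside the WT range for Hoxc11, and KO replicate 1 or WT replicate 3 was the lowest library. Hoxc4 had 29.5, 28.4 and 18.9 CPM (WT) against 23.7, 21 and 31.7 CPM (KO). Hoxc6 had 24.8, 24.8 and 21.8 CPM (WT) against 23.1, 32.9 and 22.9 CPM (KO). Hoxc8 had 17.8, 28.1 and 14.8 CPM (WT) against 14.8, 19.0 and 25.9 CPM (KO). These 3 more anterior genes overlapped between genotypes as well. Hoxc5 was the most variable of the cluster's expressed genes, at 11.3, 11.4 and 3.76 CPM (WT) against 4.29, 6.05 and 9.10 CPM (KO), with WT replicate 3 below every KO library. The posterior end of the cluster was nearly silent, with at most 6 counts of Hoxc12 and 12 of Hoxc13, a gene known from hair and nail, in any library.

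In the Hoxa cluster, Hoxa10, a regulator of lumbar and proximal limb patterning that adult limb muscle stem cells are known to express, had 153, 127 and 104 CPM (WT) against 113, 123 and 116 CPM (KO). The KO libraries lay within the WT range. Hoxa9, also known for its role in blood stem cells, had 52.9, 65.6 and 68.9 CPM (WT) against 45.5, 66.6 and 75.5 CPM (KO). Hoxa7 had 52.8, 54.3 and 49.2 CPM (WT) against 43.1, 60.7 and 58.6 CPM (KO). Hoxa5, required for lung and cervical patterning, had 8.18, 12.6 and 13.5 CPM (WT) against 7.12, 17.3 and 12 CPM (KO). For Hoxa9, Hoxa7 and Hoxa5 the KO libraries reached both below and above all WT libraries. Hoxa11, which patterns the middle segment of the limb, had 4.2, 4.84 and 3.25 CPM (WT) against 3.51, 5.73 and 5.90 CPM (KO). Hoxa3, a gene of the pharyngeal region, had 2.76, 2.32 and 3.63 CPM (WT) against 1.77, 6.34 and 4.05 CPM (KO). Hoxa11 and Hoxa3 overlapped between genotypes too.

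The other Hoxa genes were low and uneven. Hoxa2, a gene of the hindbrain and branchial arches, had 0.336, 2.63 and 0.654 CPM (WT) against 0.702, 3.04 and 3.29 CPM (KO), so the library labelled WT replicate 2 stood with KO replicates 2 and 3. The immediate early gene Fos, which dissociation of muscle is known to induce, was highest in the same 3 libraries, at 3438, 7260 and 1364 CPM (WT) against 2968, 8183 and 7980 CPM (KO), and its part in the level of Hoxa2 was not tested. Hoxa13, which patterns digits and the urogenital tract, had 0 to 78 counts (0 to 1.63 CPM), the highest in the library labelled WT replicate 2. Hoxa4 and Hoxa6 stayed at or below 0.918 and 0.964 CPM.

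In the Hoxd cluster, signal was limited to the middle. Hoxd8 had 10.9, 3.00 and 12.1 CPM (WT) against 16.2, 8.14 and 13.6 CPM (KO). The library labelled WT replicate 2 was lowest, and without it the other WT libraries lay inside the KO range. Hoxd9 had 2.12, 3.09 and 3.51 CPM (WT) against 0.763, 3.54 and 2.87 CPM (KO). KO replicate 1 thus had the highest Hoxd8 and the lowest Hoxd9, so that Hoxd8 stood at 16.53 times Hoxd9 per length there and at 0.76 to 4.0 times in the other libraries. Hoxd4 had 1.94, 0.772 and 0.243 CPM (WT) against 2.01, 1.35 and 1.53 CPM (KO). Hoxd1 and Hoxd3 had at most 2 and 15 counts. Hoxd10, an innervation and hindlimb gene, had 43 counts in KO replicate 3 and 0 in the other 5 libraries. Hoxd11, Hoxd12 and Hoxd13, the genes of forearm and digit patterning, had 0 counts in every library, which allows levels of up to 0.0528 to 0.0723 CPM per library (3 counts each, counting error only).

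The Hoxb cluster was close to silent over its whole length. Its 10 genes together had 32 to 107 counts per library. Hoxb2, the highest, had 0.442, 0.459 and 0.336 CPM (WT) against 0.181, 0.699 and 0.739 CPM (KO). Hoxb3, Hoxb4, Hoxb1, Hoxb6, Hoxb8 and Hoxb9 had at most 29 counts in any library, and Hoxb13, known from the prostate and tail, had none. Hoxb5 had 0, 0 and 0 counts in WT and 8, 8 and 39 in KO. Hoxb7 went the other way, with 19, 23 and 0 counts in WT and 0, 0 and 0 in KO. Neither passed the filter on low counts. In edgeR without that filter, where 864 of all 32237 genes had an unadjusted p under 0.05, theirs was 0.00829 and 0.0289. Their adjusted p in edgeR was 0.854 for each. Both genes are named because of these values.

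**Figure D2:**
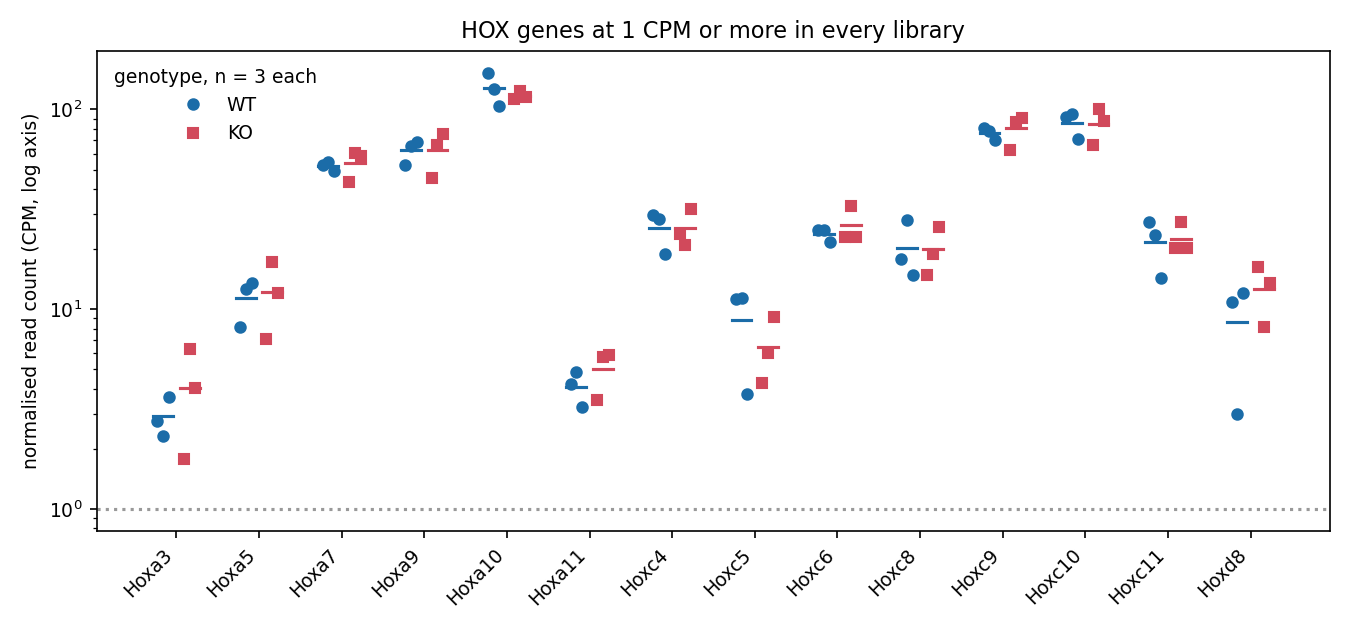
Normalised read counts (CPM, log axis) of the 14 HOX genes at 1 CPM or more in every library, with 1 point per library, WT as circles and KO as squares (n = 3 each), bars at the group means and a dotted line at 1 CPM. The points of the 2 genotypes overlap in every gene, from Hoxa3 (1.77 to 6.34 CPM) to Hoxa10 (104 to 153 CPM).

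HOX levels did not differ detectably between KO and WT at this number of libraries. The 39 genes together had 575, 570 and 476 CPM (WT) against 453, 594 and 586 CPM (KO), or 540 ± 56.0 against 544 ± 79.3 CPM (SD, n = 3 each). Of the 39, 23 passed the filter on low counts and were tested. EdgeR's quasi-likelihood test called 0 of them at an adjusted p under 0.05, beside 0% of all 18832 genes tested, and 0 had an unadjusted p under 0.05, beside 2.09% of all genes. DESeq2 also called 0 of the 23, beside 0.106% of all genes, with 0 at an unadjusted p under 0.05 beside 2.76%, and limma voom gave 0 and 0. The smallest unadjusted p among them in edgeR was 0.33, for Hoxa2, and every adjusted p was 0.99998. None of the 23 had genotype groups that did not overlap, beside 6.55% of all genes tested.

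The changes of the abundant members were bounded fairly closely. Hoxa10 had a log2 fold change (KO minus WT) of -0.13 (SE 0.17, 95% interval -0.52 to 0.26), which spans 0.70 to 1.2 times the WT level. Hoxc10 had -0.02 (SE 0.20, -0.49 to 0.45), Hoxc9 0.07 (SE 0.17, -0.34 to 0.48), Hoxa7 0.06 (SE 0.17, -0.35 to 0.46) and Hoxa9 0.00 (SE 0.22, -0.52 to 0.52). For 10 of the 23 genes the whole 95% interval lay within 1 log2 unit of 0. These 10 were Hoxa5, Hoxa7, Hoxa9, Hoxa10, Hoxc4, Hoxc6, Hoxc8, Hoxc9, Hoxc10 and Hoxc11. Larger changes were not excluded for the low members. The interval ran from -0.73 to 1.82 for Hoxd8, from -1.64 to 0.75 for Hoxc5, from -0.75 to 1.71 for Hoxa3 and from -2.68 to 4.09 for Hoxa13.

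Among the 14 genes at 1 CPM or more in every library, 9 log2 fold changes were above 0 and 5 below, from -0.44 for Hoxc5 to 0.54 for Hoxd8, with a median of 0.05 beside 0.00 for the 12532 genes at that level. The 23 tested genes had a median of 0.07 beside 0.01 for all 18832, with 15 above and 8 below 0. The spread over the 6 libraries, as the SD divided by the mean, was 12% for Hoxa7, 13.3% for Hoxc9, 13.9% for Hoxa10 and 47.0% for Hoxa3. Its median was 21.3% for the 14 HOX genes and 20.4% for all genes at 1 CPM or more in every library. Without the library labelled WT replicate 2, 25 HOX genes could be tested and edgeR called 0. In that fit edgeR's unadjusted p was 0.0413 for Hoxa2 and 0.0159 for Hoxb5, and 614 of all 19929 genes tested were under 0.05.

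**Figure D3:**
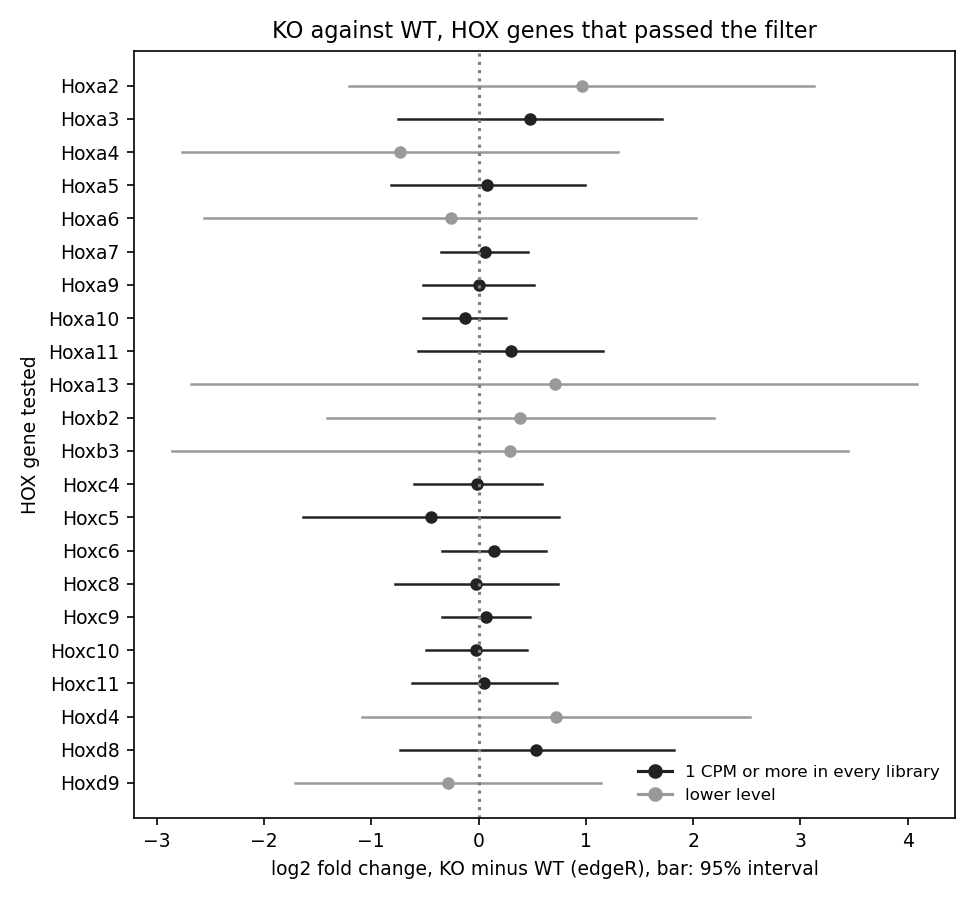
Log2 fold change, KO minus WT, of HOX genes that passed the filter (points, edgeR) with 95% intervals (bars), black for genes at 1 CPM or more in every library and grey for lower ones. Every interval shown includes 0, and the intervals widen from Hoxa10 (-0.52 to 0.26) to Hoxa13 (-2.68 to 4.09).

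The levels of the clusters were set beside those of their nearest expressed neighbours. These neighbours were chosen for reaching 1 CPM, so the choice itself fixed that they were expressed. The nearest genes outside that reached 1 CPM in all 6 libraries were Skap2, a signalling adaptor (143 kb), and Gm8129 (85.8 kb) for Hoxa, Atp5g1, an ATP synthase subunit gene (118.6 kb), and Snx11, a sorting nexin (399.3 kb), for Hoxb, Calcoco1 (198.9 kb) and the DNA repair gene Smug1 (116.4 kb) for Hoxc, and Mrpl23-ps1 (76.4 kb) and the mitochondrial outer membrane gene Mtx2 (60.7 kb) for Hoxd. Skap2 and Gm8129 averaged 0.821 and 79.1 CPM per kb beside Hoxa, and Atp5g1 and Snx11 44.2 and 4.83 beside the nearly silent Hoxb genes. Calcoco1 and Smug1 averaged 34.6 and 7.16 CPM per kb beside Hoxc, and Mrpl23-ps1 and Mtx2 77.2 and 13.4 beside Hoxd. Inside the Hoxb cluster, between Hoxb9 and Hoxb13, the processed pseudogene Gm11539 had 41.8 to 54.3 CPM. Reads of a processed pseudogene may belong to its parent gene, so the level of Gm11539 is uncertain. The same may hold for Mrpl23-ps1, a pseudogene by its name.

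Of the 36 other annotated genes within the 4 clusters, 5 reached 1 CPM in all 6 libraries and 14 had 0 counts throughout. Hotair, a long noncoding RNA between Hoxc11 and Hoxc12 that is known as a marker of posterior identity, had 15.2, 13.9 and 11.2 CPM (WT) against 11, 20 and 16.1 CPM (KO). Hoxa11os, antisense to Hoxa11, had 10.4, 14.2 and 6.04 CPM (WT) against 7.71, 9.16 and 12.7 CPM (KO), above the CPM of Hoxa11 in every library. Hoxd3os1 and Hoxaas3 averaged 1.36 and 0.864 CPM per kb. The genotypes overlapped in Hotair and Hoxa11os, and their log2 fold changes were 0.22 (SE 0.28) and -0.05 (SE 0.38). Haglr, next to Hoxd1, had at most 7 counts, and Hoxb5os had 0.

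**Figure D4:**
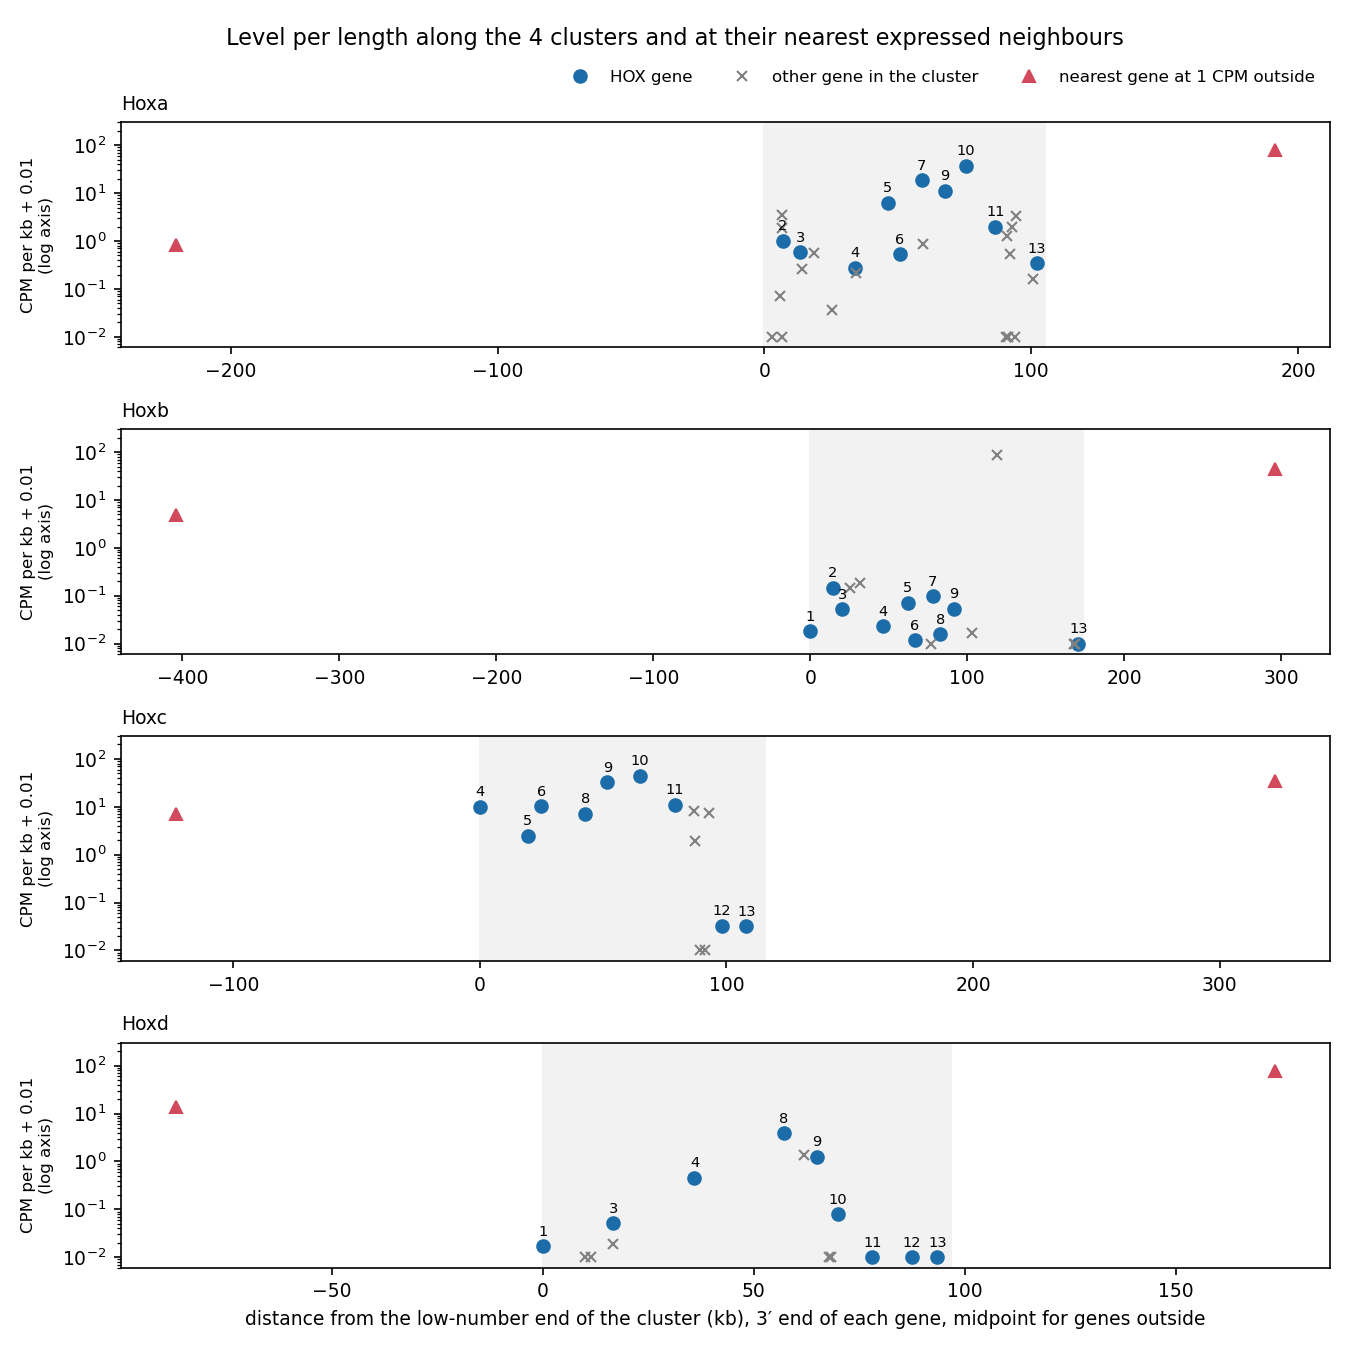
Mean level over 6 libraries (CPM per kb of exon + 0.01, log axis) along each cluster, by distance in kb from its low-number end, for HOX genes (circles, with their numbers), other genes inside the cluster (crosses) and the nearest outside gene at 1 CPM on each side (triangles). Levels in Hoxa and Hoxc peak at number 10 (37.5 and 44.8) and in Hoxd at number 8 (3.88), while Hoxb genes stay at or under 0.136 between Atp5g1 (44.2) and Snx11 (4.83).

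Exons of 12 of the 39 members share bases with another counted gene, and whether the counting used strand is not given in the sources used here. How reads in shared bases were assigned is not given either, so the levels of these genes are uncertain. Of the bases of Hoxa11, 65.0% were free of other genes on either strand (the rest lies against Hoxa11os), of Hoxa3 74.6%, of Hoxa7 79.6% and of Hoxc10 91.3% (shared with Hoxc5). Dividing by the free bases in place of all exon bases changed the level of Hoxa11 from 2.00 to 3.08 CPM per kb and that of Hoxa7 from 18.5 to 23.2. Hoxc10 (49.0), Hoxa10 (37.5) and Hoxc9 (32.2) stayed at the top of the members on that scale.

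Promoter sequences of RefSeq (GRCm38.p6, from 250 bases before to 50 after a start site) matched 22 of the 39 members with 24 windows. They are shown for the most abundant matched gene, Hoxa10, at both of its starts, and for Hoxd11 and Hoxd13, which had 0 counts, so that both extremes of level can be compared. All are written 5′ to 3′ on the strand of the gene, with CpG dinucleotides in capitals.
Hoxa10, upstream start, chr6:52240805-52241104, minus strand: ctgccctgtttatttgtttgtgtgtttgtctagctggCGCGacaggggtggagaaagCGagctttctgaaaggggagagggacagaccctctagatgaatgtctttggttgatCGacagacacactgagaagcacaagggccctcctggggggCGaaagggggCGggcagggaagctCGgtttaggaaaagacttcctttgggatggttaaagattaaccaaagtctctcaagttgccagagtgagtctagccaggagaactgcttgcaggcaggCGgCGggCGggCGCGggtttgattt
Hoxa10, downstream start, chr6:52234890-52235189, minus strand: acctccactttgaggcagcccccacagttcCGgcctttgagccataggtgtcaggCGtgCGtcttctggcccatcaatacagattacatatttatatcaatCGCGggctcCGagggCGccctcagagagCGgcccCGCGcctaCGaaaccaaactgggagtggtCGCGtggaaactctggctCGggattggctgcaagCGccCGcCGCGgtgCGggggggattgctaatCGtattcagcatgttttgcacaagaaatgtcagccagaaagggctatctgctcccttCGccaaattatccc
Hoxd11, downstream start, chr2:74682073-74682372, plus strand: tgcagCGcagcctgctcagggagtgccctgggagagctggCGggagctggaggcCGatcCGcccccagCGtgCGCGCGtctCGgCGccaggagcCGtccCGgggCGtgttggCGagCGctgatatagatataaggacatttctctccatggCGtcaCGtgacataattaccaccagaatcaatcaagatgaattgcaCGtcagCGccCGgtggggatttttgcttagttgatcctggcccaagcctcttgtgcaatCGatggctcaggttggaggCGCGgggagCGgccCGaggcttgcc
Hoxd13, chr2:74667975-74668274, plus strand: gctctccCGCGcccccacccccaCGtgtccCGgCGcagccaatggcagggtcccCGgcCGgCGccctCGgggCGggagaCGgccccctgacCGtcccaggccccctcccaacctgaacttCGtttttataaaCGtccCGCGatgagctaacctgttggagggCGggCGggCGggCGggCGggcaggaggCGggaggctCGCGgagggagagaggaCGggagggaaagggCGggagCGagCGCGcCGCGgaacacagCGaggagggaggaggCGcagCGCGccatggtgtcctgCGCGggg

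The CpG counts of silent and expressed HOX genes overlapped in these windows. The Hoxa10 windows held 12 and 21 CpG dinucleotides, the Hoxd11 window shown 25 and the Hoxd13 window 37. Among windows of genes with 0 counts that are not shown, the upstream start of Hoxd11 held 4 and Hoxd12 held 13. Over the 24 HOX windows the median was 14.5, beside 7.0 in all 32851 RefSeq windows of that length. It was 12 in the 9 windows of genes at 1 CPM or more in every library and 19.0 in the 4 windows of genes with 0 counts, with ranges of 4 to 29 and 4 to 37. The motif TATAAA, searched on both strands with overlapping matches counted, was in 4 of the 24 HOX windows (16.7%) and in 13.6% of all windows. It was found in the downstream Hoxa10 window and in the Hoxd13 window. The motif TGATNNAT, a form of the joint PBX and HOX site, searched likewise, was in 4 of 24 HOX windows (16.7%), Hoxd11 among them, and in 8.8% of all windows. A match is a string of letters, not a measured site.

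**Figure D5:**
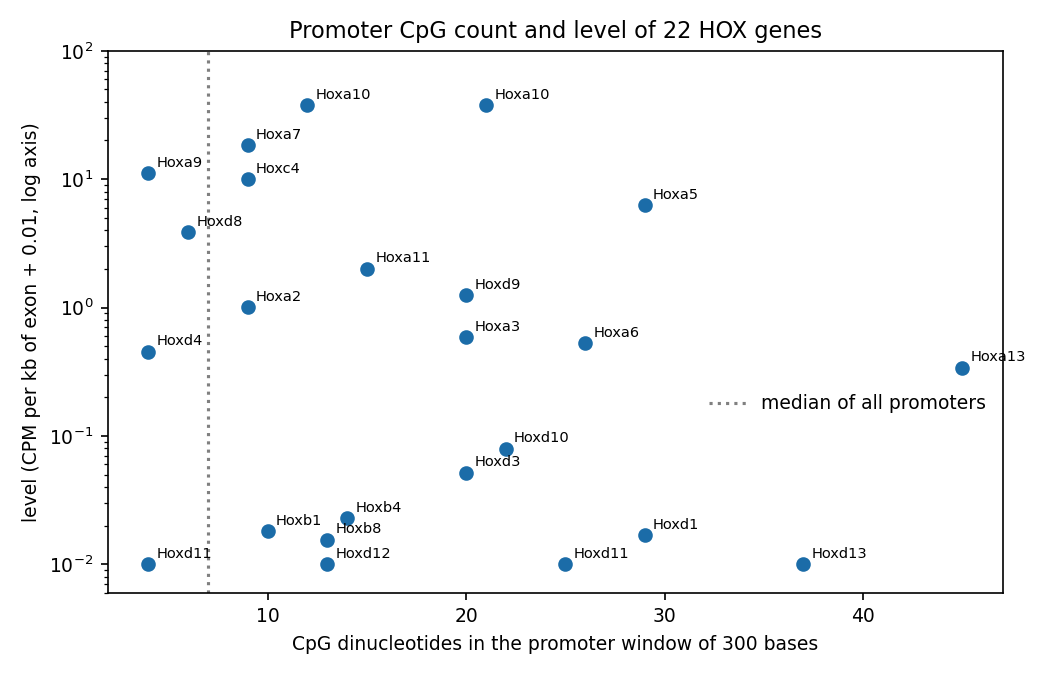
CpG dinucleotides in each promoter window of 300 bases (x axis) against the mean level of the gene (CPM per kb of exon + 0.01, log axis) for 24 windows of 22 HOX genes, with a dotted line at the median of all windows (7.0). Genes with 0 counts lie at 4 to 37 CpG and genes at 1 CPM or more in every library at 4 to 29.

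The partners of HOX proteins were expressed in both genotypes. Of the 9 TALE cofactor genes, 8 reached 1 CPM in all 6 libraries. Pknox1, which encodes PREP1, had 99.3 to 164 CPM in WT and 97.7 to 128 CPM in KO. Meis1 had 44.9 to 53.0 and 39.3 to 58.8 CPM. Log2 fold changes in edgeR were -0.15 (SE 0.23) for Pknox1, 0.06 (SE 0.19) for Meis1 and 0.71 (SE 0.59) for Pbx3, which ranged from 0.40 without the library labelled WT replicate 2 to 1.57 without WT replicate 3. Of the 8 tested, 5 were above 0 and 3 below, and 0 were called or had an unadjusted p under 0.05.

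Genes of limb identity gave a mixed picture. Tbx5, which specifies the forelimb, had 0.0353 CPM in WT replicate 1 and 0 counts in the other 5 libraries. The hindlimb genes were low too, with Pitx1 at 0 to 0.141 CPM and Tbx4 at 2.07 to 2.19 CPM in WT and 1.28 to 2.21 CPM in KO. Prrx1 (30.2 to 59.2 CPM) and En1 (24.2 to 32.5 CPM) were the most abundant of the 16 genes, and Tbx18 had a log2 fold change of -2.56 (SE 1.41), from -4.10 without KO replicate 2 to -1.77 without the library labelled WT replicate 2. Of the 12 tested, 5 were above 0 and 7 below, with 0 called.

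Regulators of migrating limb muscle progenitors were expressed in these adult cells. Met, the receptor for hepatocyte growth factor, had 43.8 to 106 CPM in WT and 69.0 to 117 CPM in KO. Pax3 had 13.2 to 14.6 CPM in WT and 12.5 to 17.6 CPM in KO. Eya1, a transcriptional coactivator of muscle progenitors, had 44.2, 71.4 and 48.0 CPM (WT) against 31.6, 31.1 and 42.6 CPM (KO), so that every KO library lay below every WT library. Its log2 fold change was -0.63 (SE 0.24) in edgeR, with an unadjusted p of 0.0324 and an adjusted p of 0.99998, so it did not pass. Six4 had 0.38 (SE 0.34). Of the 11 tested, 5 were above 0 and 6 below, and 0 were called.

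Of 7 regulators of head muscle, Msc (145 to 266 CPM), also known in limb muscle, was abundant, and Isl1 stayed at or below 2.17 CPM. Their log2 fold changes were -0.31 (SE 0.23) and -1.29 (SE 1.43), and 0 of the 4 tested were called.

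Trithorax and polycomb genes, whose products keep HOX clusters active or silent, were expressed throughout. All 13 trithorax genes reached 1 CPM in all 6 libraries, and 8 log2 fold changes were above 0 and 5 below, with a median of 0.17 and 0 called. Ash1l, a histone methyltransferase, had 141 to 168 CPM in WT and 157 to 201 CPM in KO (0.26, SE 0.14), Kmt2d 128 to 131 and 126 to 179 CPM (0.24, SE 0.15) and Kmt2a, or MLL1, 105 to 153 and 120 to 166 CPM (0.22, SE 0.19). The H3K27 demethylase genes Kdm6a and Kdm6b had 0.50 (SE 0.24) and 0.41 (SE 0.21), with unadjusted p of 0.0709 and 0.0888 in edgeR. Both overlapped between genotypes. Kdm6a had 63.4, 42.5 and 67.0 CPM (WT) against 64.1, 99.9 and 81.1 CPM (KO). It was lowest in the library labelled WT replicate 2. Its log2 fold change was 0.33 without that library and ranged from 0.32 to 0.65 over all libraries left out in turn.

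Of the 20 polycomb genes, 19 were at that level, and 14 log2 fold changes were above 0 and 6 below, with a median of 0.04 and 0 called. Rbbp4 (291 to 397 CPM) and Jarid2 (68.8 to 191 CPM) were the most abundant. Ezh2, the H3K27 methyltransferase of dividing cells, had 19.3, 24.9 and 27.8 CPM (WT) against 28.7, 23.6 and 17.9 CPM (KO). Its log2 fold change was -0.04 (SE 0.24), beside -0.02 (SE 0.17) for Rbbp4, 0.15 (SE 0.36) for Jarid2 and -0.38 (SE 0.26) for Cbx8. Of the 13 Cdx and retinoid genes, which set HOX expression in the embryo, 9 were tested and 0 called. Rarg and Aldh1a1 were the most abundant, at log2 fold changes of 0.56 (SE 0.32) and 0.12 (SE 0.25), and Cyp26b1, a retinoic acid hydroxylase, had 1.88 (SE 0.93), or 0.70 without KO replicate 2, which held 119 of its counts.

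Other cell types of muscle carry HOX patterns of their own, and the summed levels of their marker lists ranged from under that of Pax7 (252 to 453 CPM) to far above it. The 10 endothelial markers summed to 109 to 195 CPM in WT and 108 to 183 CPM in KO, with Tek and Pecam1 the most abundant, and 5 of 10 reached 1 CPM in all 6 libraries. The 10 fibro-adipogenic markers summed to 898 to 1392 and 738 to 927 CPM, most of it Dpt (599 to 1195 CPM), while Pdgfra, their defining receptor, had at most 2.56 CPM. The 10 leukocyte markers summed to 7.85 to 20.2 CPM over all libraries, led by Cd68 and Lyz2, with Ptprc at 0 counts in 3 of 6 libraries. Of the 6 leukocyte genes tested, 4 log2 fold changes were above 0 and 2 below, with a median of 1.27. Laptm5 had 0, 1 and 0 counts in the WT libraries and 33, 32 and 14 in those of KO (edgeR, unadjusted p of 0.00261, adjusted p of 0.99998), and Tyrobp had 10, 12 and 0 against 15, 24 and 42 counts. KO was higher in every library for both genes, and 0 genes of the list were called.

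The mature fibre list (led by Acta1 and Atp2a1) summed to 211 to 628 CPM, the smooth muscle and pericyte list (Acta2 and Des) to 1084 to 1981, the Schwann list (Ncam1 and Pmp22) to 1426 to 1855 and the tenocyte list (Chodl and Mkx) to 2455 to 5874 CPM. Chodl alone had 2447 to 5866 CPM. All 10 genes of the fibre list had log2 fold changes below 0, with a median of -0.28 and 0 called by edgeR. The 8 immediate early genes and the 8 cell cycle genes all had log2 fold changes above 0, with medians of 0.71 and 0.21 and 0 called. Mki67, a marker of cycling cells, had 34.3, 1.59 and 38.0 CPM (WT) against 78.6, 3.18 and 0.651 CPM (KO). The libraries with the highest Mki67, KO replicate 1 and WT replicate 3, had the lowest summed HOX counts (453 and 476 CPM), and WT replicate 1, next in Mki67, had 575 CPM of HOX counts. The part of other cells and of cycling in the HOX levels was not tested.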

How the data were processed

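Bulk RNA-seq of 6 libraries (3 WT, 3 KO) was analysed. Each library's deposited file holds raw counts (whole numbers, no normalization) for 49652 genes, followed by 5 summary lines. Those lines entered no library size or test: reads without a feature made up 11.15% to 17.02%, ambiguous reads 1.21% to 1.42% and reads aligned more than once 14.82% to 24.57% of all. The submitters' processing notes name HTSeq 0.6.1p2, STAR 2.6.0c, cutadapt 2.5 and Trim Galore 0.5.0, beside DESeq2 and edgeR without versions, and GRCm38 as the build. For the annotation release, counting mode and strand setting nothing is given in the sources used here. Symbols, positions and exon lengths came from GENCODE M21, which matched 49399 rows and all 39 HOX genes with the same versioned ID.

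KO was compared with WT on the counts of all genes by the quasi-likelihood test of edgeR 4.0.16 (R 4.3.3; robust, TMM scaling, the package's filter on low counts, no covariate), with Benjamini-Hochberg adjustment over 18832 genes and a threshold of 0.05. DESeq2 1.42.0 and limma voom 3.58.1, other scalings, no filter, a replicate block and each library left out were alternatives. Each SE was taken as |log2 fold change| over the root of the F statistic, and 95% intervals from the t quantile at edgeR's total degrees of freedom. Levels are CPM after TMM scaling, and between genes CPM per kb of all annotated exons. In simulated counts for this comparison (18832 genes, dispersions as estimated), 8% of genes changed 2-fold and 53% of those changed 4-fold were called, with 6 false calls.

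All 39 members are in the counts and sums, with values per library for those at 1 CPM or more in every library or with p under 0.05. Of each related list the 2 most abundant genes, the 2 with the smallest p and some chosen genes are named, except a few genes that are not reported here, and Hoxa2, Hoxb5 and Hoxb7, other low members, Calcr, Chrdl2, Laptm5, Tyrobp, Pdgfra, Ptprc, Xist and Ddx3y are named after their values were seen. Members, lists and rules were chosen with earlier results of these data known.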

Additional observations from a re-analysis of the deposited data

How the results depend on the processing

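The count of HOX genes at 1 CPM or more in every library (14) was 15 at 0.5 CPM, 13 at 2 CPM and 14 to 15 with a library left out, and cluster shares moved by less than their SD. EdgeR called 0 HOX genes under every alternative run with it, as did DESeq2 and limma voom. Over all genes DESeq2 called 20 where edgeR called 0, and the cause was not tested. In edgeR 393 of 18832 genes had an unadjusted p under 0.05, against 864 of 32237 without the filter and 324 to 818 with a library left out. HOX genes at an unadjusted p under 0.05 numbered 0 of 23, but 2 of 35 (Hoxb5 and Hoxb7) without the filter, which let more genes be tested. With a library left out they numbered 0 to 2. Those were Hoxa2 and Hoxb5 without the library labelled WT replicate 2 (2 of 25, beside 614 of 19929 genes). Hoxb7 was under 0.05 without WT replicate 3 (1 of 24, beside 464 of 19805). Hoxb5 was also under 0.05 without KO replicate 1 (1 of 25, beside 818 of 19974).

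The median log2 fold change of the tested HOX genes ranged from -0.05 (without KO replicate 2) to 0.20. The sign of 9 of the 14 abundant HOX genes turned under at least 1 alternative, all uncalled. With a library left out Hoxc10 ranged from -0.17 to 0.13, Hoxa10 from -0.26 to 0.02, Hoxc9 from -0.03 to 0.22, Hoxa7 from -0.05 to 0.20, Hoxc11 from -0.18 to 0.26, Hoxc6 from -0.06 to 0.23, Hoxc4 from -0.20 to 0.11, Hoxc8 from -0.26 to 0.29 and Hoxa5 from -0.28 to 0.35. With limma voom Hoxc4 and Hoxc8 were each at 0.02. Of 25 other genes, 11 turned sign. With a library left out Meis1 ranged from -0.07 to 0.22, Pknox1 from -0.28 to 0.12, En1 from -0.04 to 0.17, Pax3 from -0.06 to 0.20, Met from -0.08 to 0.58, Six4 from -0.04 to 0.61, Ezh2 from -0.21 to 0.12, Rbbp4 from -0.18 to 0.05, Jarid2 from -0.16 to 0.36 and Aldh1a1 from -0.12 to 0.30. With limma voom Isl1 was at 0.88.

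With the replicate block the median of the tested HOX genes was 0.04, 0 HOX genes were called, 515 genes were at an unadjusted p under 0.05, and no other call changed. Same-numbered libraries deviated together at correlations of 0.245, 0.105 and -0.072 across 18832 genes, and WT replicates 2 and 3 each correlated more with a KO library of another number, so the numbers were not taken to pair the libraries. Depth limits the Hoxb genes, Hoxd10 and the members numbered 12 and 13, all of which except Hoxa13 had under 50 counts in every library.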
